A study of Homo sapiens with 6 samples.

Results

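The interleukin-1 (IL-1) family and its receptors were followed in BT549 cells after BNC2 knockdown. The 10 genes were chosen by name, out of 23346 genes in the count table: the ligands and antagonists IL1A, IL1B, IL1RN, IL18, IL33 and IL36RN, the receptor chains IL1R1, IL1R2 and IL1RAP, and the protease CASP1. BT549 is a human breast cancer cell line of mesenchymal character, and both groups are that one wild-type line. 3 libraries came from cells given 20 nM BNC2 siRNA and 3 from cells given 20 nM negative control (NC) siRNA, with RNA taken at day 6. The BNC2 siRNA was an equal mix of 3 duplexes against BNC2, which encodes the zinc finger protein basonuclin-2. The comparison asks which transcripts differ after BNC2 siRNA in a cell that expresses BNC2 naturally. A single mix was set against a single control sequence, so loss of BNC2 and other effects of the siRNA sequences cannot be told apart.

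IL-1 ligands are secreted or released cytokines of inflammation. IL-1α and IL-1β, encoded by IL1A and IL1B, bind IL1R1, which then recruits the accessory chain IL1RAP to signal through MYD88 and IRAK kinases to NF-κB. The pathway is braked by IL1RN, a ligand that occupies IL1R1 without signalling, and by IL1R2, a decoy receptor, while caspase-1 (CASP1) cuts the IL-1β and IL-18 precursors into their active forms.

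The guide strands of the siRNAs are shown because they define the 2 groups. They are written 5′ to 3′ with the sequences of the supplementary list of the study, and the seed (bases 2 to 8) is in capitals. That list repeats a number for the third BNC2 guide, so guides were numbered by pairing with their sense strands.
BNC2 siRNA (1): uUUACACUgaucacaagucct
BNC2 siRNA (2): uUGUCAUAgaaugucuucctt
BNC2 siRNA (3): uUUCGGCUucguacagaggtt
NC siRNA: aCGUGACAcguucggagaatt
The 19 bases that pair with a target were found whole in 12, 6 and 7 of the 16 annotated BNC2 transcripts for the BNC2 guides in that order, and in 0 of 16 for the NC guide. None of the 4 was matched in full by any annotated transcript of the 10 genes, and for the BNC2 guides the longest run shared with one was 10 bases. Pairing by seed alone was not searched.

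The promoters of IL1B and IL1RAP are shown because these 2 genes moved farthest in opposite directions among the well-counted members. Each is the RefSeq sequence from 250 bases before to 50 bases after the start site (GRCh38.p14), written on the strand of the gene. IL1B lies at chr2:112836730-112837029 on the minus strand and IL1RAP at chr3:190513835-190514134 on the plus strand. The capitals mark matches on either strand to 4 sets of letters: GGG followed by any 5 bases and CC for NF-κB, TGANTCA for AP-1, TTGCNNAA for C/EBP and TATAAA for a TATA box, where overlapping matches run together.
IL1B promoter: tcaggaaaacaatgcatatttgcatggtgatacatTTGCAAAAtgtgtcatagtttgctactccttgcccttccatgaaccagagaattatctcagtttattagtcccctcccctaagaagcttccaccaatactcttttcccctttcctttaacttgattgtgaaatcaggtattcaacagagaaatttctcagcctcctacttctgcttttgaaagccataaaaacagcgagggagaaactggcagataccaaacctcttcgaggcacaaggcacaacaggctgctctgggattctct
IL1RAP promoter: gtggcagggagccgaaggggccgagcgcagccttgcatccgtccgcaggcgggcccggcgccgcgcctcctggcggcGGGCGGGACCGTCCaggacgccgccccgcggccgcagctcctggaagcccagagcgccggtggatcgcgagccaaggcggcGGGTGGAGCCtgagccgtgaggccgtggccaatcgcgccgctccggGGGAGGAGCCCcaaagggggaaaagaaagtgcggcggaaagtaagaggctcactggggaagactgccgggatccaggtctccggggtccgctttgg
The IL1B window held 1 C/EBP match, which starts at -215, and none of the other 3. The IL1RAP window held 5 NF-κB matches and none of the other 3. Across 35116 promoters of 300 bases, 58.7% hold the NF-κB letters, 7.71% the AP-1 letters, 10.5% the C/EBP letters and 11.5% the TATA letters. The IL1RAP window is 73.7% G and C and the IL1B window 42.3%, against a median of 58.7% over all promoters. Entries were found for 8 of the 10 genes, not for IL18 or CASP1.

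The libraries held 16093978 to 18246254 reads assigned to genes. BNC2 itself was counted 1165, 919 and 973 times under NC siRNA, then 610, 648 and 653 times under BNC2 siRNA, a log2 fold change of -0.63 (SE 0.09, adjusted p = 8.2e-06). By this fit 64.6% of the NC siRNA level of BNC2 RNA remained at day 6, so the knockdown was partial. Levels below are CPM, read counts divided by library size after trimmed mean (TMM) scaling, and adjusted p-values are from edgeR's quasi-likelihood test with the Benjamini-Hochberg method over all 12186 genes that exceeded 1 CPM in at least 3 libraries. Of these genes 72.9% were called at an adjusted p of at most 0.05, 36.2% as down-regulated and 36.6% as up-regulated, and the groups did not overlap for 74.9%. A call is therefore common in this comparison, and the size of a change says more than its call. 4 of the 10 members were tested, and 6 were counted too rarely. Of the 4, IL1B, IL36RN and IL1R1 were called down-regulated and IL1RAP was called up-regulated. IL1B and IL36RN passed the count filter through the NC siRNA libraries alone, so a difference between the groups was built into their being tested, and the number of members called is not read against these shares.

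**Figure D1:**
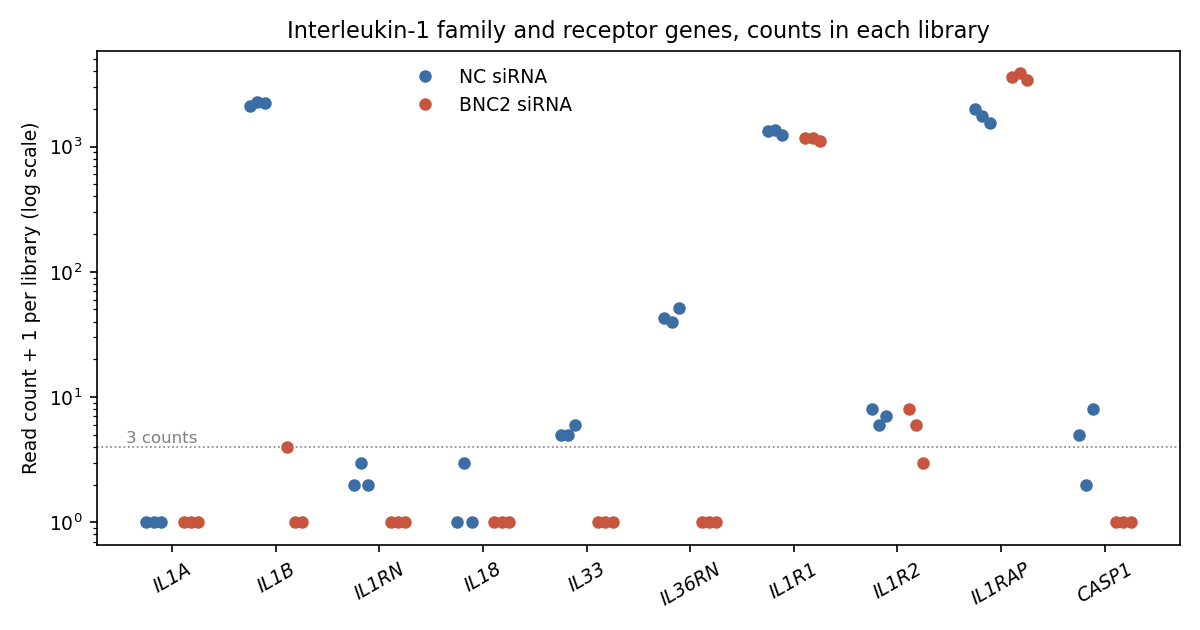
Reads counted for each of the 10 genes in each of the 6 libraries (points), plotted as count + 1 on a log axis, with NC siRNA in blue and BNC2 siRNA in red. The dotted line marks 3 counts. IL1B stood at 2118 to 2280 counts with NC siRNA and at 3, 0 and 0 with BNC2 siRNA, while IL1R1 and IL1RAP stayed at 1103 counts or more in each library.

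IL1B, the main secreted IL-1 agonist, was the member with the largest difference in CPM. It was counted 2118, 2280 and 2223 times under NC siRNA, then 3, 0 and 0 times under BNC2 siRNA. The mean level was 127 CPM under NC siRNA (SD 7.29, n = 3) and 0.0582 CPM under BNC2 siRNA (SD 0.101, n = 3). The single BNC2 siRNA library with reads was replicate 1, and the groups were far apart. Summed over the libraries, 6621 reads stood against 3, a depth-adjusted ratio of 2140 with a 95% interval of 732 to 10400, which covers counting error only. Without BNC2 siRNA replicate 2 the ratio was 1390. Without replicate 1 the remaining BNC2 siRNA libraries are both at 0, and the level was at least 702-fold lower against a limit of 3 counts per library. The fitted log2 fold change of -10.9 (SE 0.21, adjusted p = 2e-16) depends on the prior count that edgeR adds. It ran from -14.08 to -10.33 as single libraries were left out, lowest without BNC2 siRNA replicate 1. By this fitted value IL1B ranked 1 of 12186 among falling genes, a rank that depends on the same prior count. From bulk RNA, fewer cells that express IL1B and less IL1B RNA per cell cannot be told apart.

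IL36RN, which encodes the antagonist of the IL-36 receptor, was lower by more than an order of magnitude from a far lower start. The NC siRNA libraries held 42, 39 and 50 reads and the BNC2 siRNA libraries none. Its mean was 2.52 CPM (SD 0.434, n = 3) with NC siRNA. Against a limit of 3 counts per library this is at least 14.1-fold lower (SD 2.43 over the NC siRNA libraries), and at least 12.3-fold from the lowest NC siRNA library. It passed the test with an adjusted p of 5.9e-08, and its fitted log2 fold change of -8.43 is no bound. IL36RN and IL1B thus went in the same direction although one encodes an antagonist and the other an agonist, of different receptors.

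The other ligands were close to absent in both groups. IL1A, the partner agonist of IL1B, had 0 reads in all 6 libraries, which allows 0.173 CPM with NC siRNA and 0.178 CPM with BNC2 siRNA at 3 counts per library. IL1RN, the antagonist of IL1R1, had 1, 2 and 1 reads with NC siRNA and 0 in each BNC2 siRNA library, so the fold change is not given. IL18, a ligand activated by caspase-1, had 2 reads in all, both in NC siRNA replicate 2.

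IL33, an alarmin released from damaged cells, was counted 4, 4 and 5 times with NC siRNA and not at all with BNC2 siRNA. This was at least 1.4-fold lower (SD 0.247). CASP1 was counted 4, 1 and 7 times with NC siRNA and likewise 0 times in each BNC2 siRNA library. NC siRNA replicate 2 lies under the limit of 3 counts, at 0.314 of it, so no fall of CASP1 is bounded at this depth. Neither gene overlapped between the groups. With no count filter, edgeR's quasi-likelihood test gave an adjusted p of 0.0043 for IL33 and 0.0063 for CASP1. It gave 0.15 for IL1RN, 0.33 for IL18 and 0.73 for IL1R2. That fit covered 18121 genes, of which 26.7% were called down-regulated. Its adjusted p for IL1RAP was 3.4e-62, beside 5.1e-10 with the filter. The unfiltered p-values are therefore not comparable with the others, and they bound no fall.

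A count of 0 with BNC2 siRNA was itself not rare. 4 of the untested members had between 4 and 20 reads summed over the NC siRNA libraries, and IL1RN, IL33 and CASP1 of these had 0 in each BNC2 siRNA library. Among all 2103 genes with 4 to 20 such reads, a window chosen after the values were seen, 20.4% had 0 in each BNC2 siRNA library. In the opposite direction, 3.55% of 1688 genes with 4 to 20 summed BNC2 siRNA reads had 0 in each NC siRNA library.

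4 of the ligand and antagonist genes are neighbours. In GRCh37, the assembly of hg19, IL1A (chr2:113531502-113542070), IL1B (chr2:113587328-113594393), IL36RN (chr2:113816215-113822959) and IL1RN (chr2:113856892-113891593) fall within 360 kb, together with IL37, IL36G, IL36A, IL36B and IL1F10, which encode the remaining ligands of the cluster. 8 of these 9 genes had no read in the BNC2 siRNA libraries, and IL1A and IL36A had none in either group. Apart from IL1B and IL36RN, the cluster genes together gave 15, 23 and 12 reads under NC siRNA and 0, 0 and 0 under BNC2 siRNA. IL36B contributed 6, 8 and 5 of these reads, IL36G 5, 5 and 2, IL37 3, 6 and 1, and IL1F10 0, 2 and 3. As given above, 20.4% of all genes with 4 to 20 summed NC siRNA reads had 0 in each BNC2 siRNA library.

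**Figure D2:**
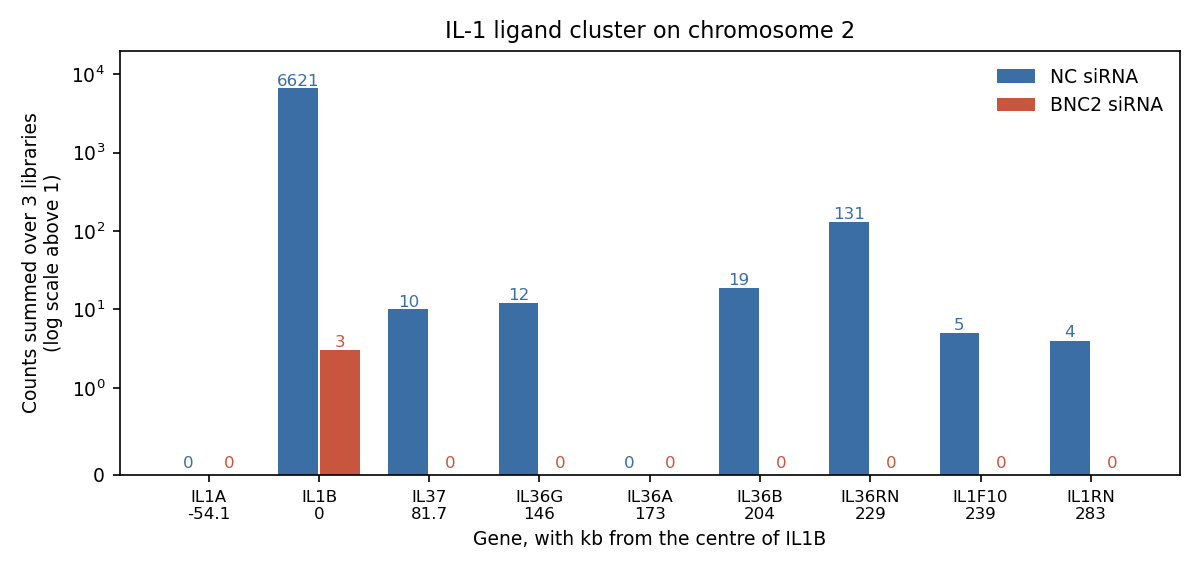
Reads summed over the 3 libraries of each group for the 9 genes of the IL-1 ligand cluster, in chromosomal order with the distance from the centre of IL1B in kb (vertical axis linear up to 1 and logarithmic above). Of the 7 genes with reads under NC siRNA, only IL1B has any under BNC2 siRNA, 3 against 6621.

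Other genes around IL1B moved in both directions. Within 500 kb of it lay 14 further genes of the table outside the member list, of which 8 were tested, with 5 called down-regulated and 2 up-regulated, beside 36.2% and 36.6% of all genes tested. Their median log2 fold change was -0.34, beside 0.001 over all genes. SLC20A1, a phosphate transporter, went from 414 CPM (SD 5.53) to 228 CPM (SD 3.66), a log2 fold change of -0.86 (SE 0.05, adjusted p = 2.7e-10). PAX8, a developmental transcription factor, went from 27.9 CPM (SD 2.72) to 8.15 CPM (SD 0.613), a log2 fold change of -1.78 (SE 0.11, adjusted p = 2.5e-10). CKAP2L, which lies nearest to IL1A, changed by -0.45, TTL by -0.23 and PSD4 by -0.86 with overlapping groups, whereas POLR1B and ZC3H6 rose by 0.68 and 0.75 on the log2 scale. CHCHD5 was at 13.5 CPM (SD 1.81) and 15.2 CPM (SD 2.46) with an adjusted p of 0.23, and RGPD8 had no read. None of the 8 tested neighbours lost its reads as IL1B and IL36RN did, but all 8 lie outside the ligand cluster. Between IL1B and IL36RN, the ligand genes with NC siRNA reads had none with BNC2 siRNA, as given above. Whether the change was regional was not tested. The other ligand genes had too few reads to be set beside these neighbours.

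Among the receptor chains the largest change was in IL1RAP. IL1RAP, the signalling chain shared by the receptors of IL-1, IL-33 and IL-36, was counted 2011, 1762 and 1550 times with NC siRNA and 3573, 3850 and 3396 times with BNC2 siRNA. The mean was 102 CPM under NC siRNA (SD 10.3, n = 3) and 214 CPM under BNC2 siRNA (SD 5.17, n = 3). All of the BNC2 siRNA values were the higher ones. The log2 fold change was 1.07 (SE 0.07, adjusted p = 5.1e-10), a 2.1-fold rise, and 16.1% of all genes tested had a larger absolute change.

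IL1R1, the ligand-binding chain of the IL-1 receptor, changed little. Its level was 75.2, 75.6 and 75 CPM with NC siRNA and 68.3, 66.1 and 70.2 CPM with BNC2 siRNA. The groups did not overlap, but the log2 fold change was -0.14 (SE 0.06, adjusted p = 0.043), meaning that it fell by 9.36%, and 81.8% of genes tested had a larger absolute change. The call was lost under 10 of 14 alternative settings. Leaving out single libraries ended it for NC siRNA replicate 2 (adjusted p = 0.093), NC siRNA replicate 3 (0.083), and BNC2 siRNA replicates 1 (0.091), 2 (0.19) and 3 (0.051), in the same edgeR test, though the sign stayed negative.

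IL1R2, the decoy, was counted 7, 5 and 6 times with NC siRNA and 7, 5 and 2 times with BNC2 siRNA. The groups overlapped, and the depth-adjusted ratio of NC siRNA to BNC2 siRNA reads was 1.25 with a 95% interval of 0.586 to 2.71, so a difference was not detectable at this depth. IL1R2 and IL1R1 lie side by side on chromosome 2 (chr2:102608422-102645006 and chr2:102681004-102796334), 10.7 Mb from the ligand cluster, and IL1RAP lies on chromosome 3 (chr3:190231840-190377539). The remaining members lie apart from both clusters, IL33 at chr9:6215786-6257983, CASP1 at chr11:104896124-104905977 and IL18 at chr11:112013976-112034819.

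The ratio of IL1RAP to IL1R1 reads, taken within each library and so free of scaling between libraries, differed between the groups. Reads were counted per gene, so the transcript forms of IL1RAP were not told apart. IL1RAP gave 1.51, 1.31 and 1.24 reads per IL1R1 read with NC siRNA and 3.04, 3.28 and 3.08 with BNC2 siRNA. The ratio rose 2.32-fold, and the exact two-sided permutation test gave p = 0.1, the smallest that 3 against 3 libraries allows.

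**Figure D3:**
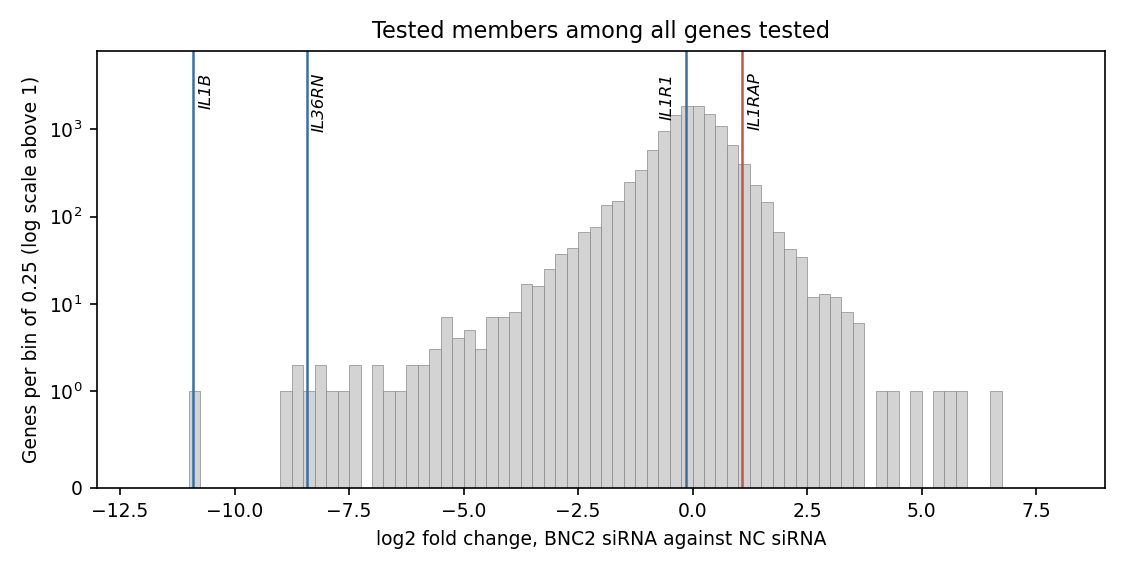
Number of genes in each bin of log2 fold change (BNC2 siRNA against NC siRNA) over the 12186 genes tested, on an axis that is logarithmic above 1, with lines at the 4 tested members. IL1B at -10.9 lies at the far left end, IL36RN at -8.43 in the left tail, IL1R1 at -0.14 inside the central mass and IL1RAP at 1.07 on its right flank.

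To compare members with each other, levels were divided by the length of the MANE Select transcript, the single reference transcript of each gene. On this scale of CPM per kb, IL1B stood at 84.2 (SD 4.84) with NC siRNA, above IL1RAP at 21.4 (SD 2.18) and IL1R1 at 14.5 (SD 0.0649), while IL36RN was at 0.967 (SD 0.166) and IL1R2 at 0.236 (SD 0.0402). The rest were lower still, with CASP1 at 0.117 (SD 0.0916), IL33 at 0.0932 (SD 0.0164), IL1RN at 0.0447 (SD 0.0182), IL18 at 0.0335 (SD 0.058) and IL1A at 0, and in this order the libraries of IL1R2 and CASP1, of CASP1 and IL33, and of IL1RN and IL18 overlap, whereas IL33 was above IL1RN in each library. With BNC2 siRNA the order became IL1RAP at 45 (SD 1.09), IL1R1 at 13.2 (SD 0.397), IL1R2 at 0.186 (SD 0.0959) and IL1B at 0.0386 (SD 0.0668), the last pair with overlapping libraries. The libraries of IL18 with NC siRNA also overlap those of IL33 and CASP1. The order of IL1RAP and IL1R1 with NC siRNA depends on the length used. With all annotated exons as the length, a choice made after seeing the data, they were at 9.08 (SD 0.922) and 10.6 (SD 0.0472) CPM per kb. CASP1 and IL33 also changed places on that length, at 0.0591 (SD 0.0461) and 0.0769 (SD 0.0135). IL1B was the highest with NC siRNA on both lengths. Of all reads over the 6 ligand and antagonist members with NC siRNA, IL1B took 97.8%.

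**Figure D4:**
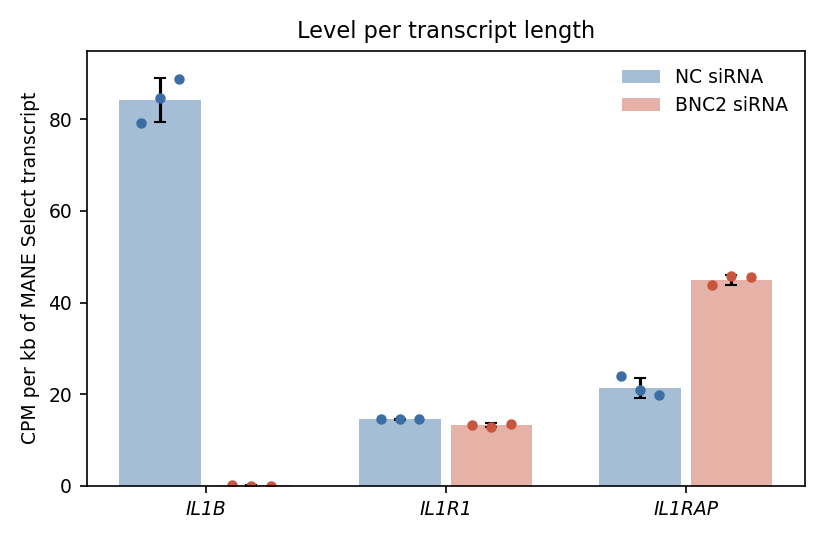
Level in CPM per kb of MANE Select transcript for IL1B, IL1R1 and IL1RAP. Bars are group means, error bars the SD of 3 libraries and points the libraries. IL1B goes from the highest of the 3 (84.2) to near 0, IL1R1 stays near 14 and IL1RAP goes from 21.4 to 45.

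The libraries read the strand of each transcript, and counts on the opposite strand were checked. IL1A had 0 reads on its own strand but 9, 5 and 6 on the opposite strand with NC siRNA and 4, 3 and 2 with BNC2 siRNA. IL1B had 28 opposite-strand reads against 6621 on its own strand with NC siRNA, and 1 against 3 with BNC2 siRNA. For IL1R1 and IL1RAP these reads made up 0.304% and 0.225% with NC siRNA, and IL36RN, IL33 and CASP1 had none. Over whole libraries the opposite strand took 2.09 to 2.14% with NC siRNA and 1.59 to 1.86% with BNC2 siRNA.

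The remaining receptors, decoys and binding protein of the family were mostly at low levels. Of 8 genes 2 were tested. SIGIRR, a receptor-like inhibitor of IL-1 signalling, went from 8.71 CPM (SD 1.5) to 6.61 CPM (SD 1.3), a log2 fold change of -0.39 (SE 0.16, adjusted p = 0.039) with overlapping groups. Without NC siRNA replicate 3 none of the 8 genes was called, and without BNC2 siRNA replicate 1 there were 2. IL18BP, a secreted trap for IL-18, was at 5.86 CPM (SD 0.751) and 6.55 CPM (SD 0.776) with an adjusted p of 0.34. Untested IL18R1, the IL-18 receptor chain, had 12, 5 and 13 reads with NC siRNA and 1, 2 and 0 with BNC2 siRNA, and IL1RAPL1, a relative of IL1RAP, had 30, 16 and 26 and then 12, 4 and 5. MAP4K4, a kinase gene beside IL1R2 on chromosome 2, rose from 377 to 478 CPM (log2 fold change 0.34, adjusted p = 7.1e-05), the only tested neighbour within 500 kb of IL1R1. Of the others there, IL1RL1 had 4, 0 and 0 reads with NC siRNA and 0, 1 and 0 with BNC2 siRNA, IL1RL2 had 1, 1 and 0 and then none, and IL18RAP, SLC9A4 and SLC9A2 had none.

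Of 20 genes for the processing and release of IL-1, 10 were tested, and 5 were called up-regulated and 5 down-regulated, beside 36.6% and 36.2% of all genes tested, with a median log2 fold change of 0. CAPN2, a calpain protease, rose from 709 CPM (SD 23.3) to 835 CPM (SD 9.98), whereas CAPN1 fell from 187 CPM (SD 3.39) to 128 CPM (SD 6.16). The inflammasome sensor NLRP1 was at 0.956 CPM (SD 0.145) with NC siRNA and 2.47 CPM (SD 0.167) with BNC2 siRNA, but it reached the count filter only through the BNC2 siRNA libraries, so its call was favoured by the filter. NEK7, a kinase needed by the NLRP3 inflammasome, fell by 0.39, the channel gene PANX1 by 0.70 and HAX1 by 0.21 on the log2 scale. NLRP3 itself had 8, 12 and 10 reads with NC siRNA and 2, 4 and 3 with BNC2 siRNA, and the adaptor gene PYCARD had 3 reads in all.

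Of 21 genes that carry the signal from the receptor, 18 were tested, with 11 called down-regulated, 2 up-regulated and 5 not called, beside 36.2% and 36.6% of all genes tested. Their median log2 fold change was -0.44, beside 0.001 for all genes. This list too was chosen with earlier results known, and its direction was not tested. The receptor adaptor MYD88 fell by 0.36 on the log2 scale (35.3 to 27.5 CPM, adjusted p = 0.001). The largest falls were in MAP3K8, a kinase upstream of ERK (-1.69, SE 0.17), PELI1, a ubiquitin ligase (-1.28, SE 0.25, tested only because of its NC siRNA libraries), and TOLLIP, an adaptor that restrains IRAK1 (-1.25, SE 0.08). Among the best expressed, IRAK1 rose from 462 CPM (SD 27.5) to 590 CPM (SD 21.4), while TAB2 fell by 0.52, TAB3 fell by 0.72 and UBE2N fell by 0.89 on the log2 scale. Activators and inhibitors of the pathway were thus both among the genes that fell.

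Of 21 genes known to respond to IL-1, 15 were tested, and 15 were called down-regulated, against 36.2% of all genes tested. Their median log2 fold change was -1.89, against 0.001 for all genes. These genes were listed with earlier results of these data known, several also respond to other signals, and CCL20 passed the count filter through the NC siRNA libraries alone. CXCL2 would not have passed on its BNC2 siRNA libraries either, the lowest of which was at 0.891 CPM. MMP1, a collagenase, fell from 425 CPM (SD 7.87) to 8.65 CPM (SD 1.86), a log2 fold change of -5.62 (SE 0.1, adjusted p = 1.8e-16). The chemokine gene IL8 (CXCL8) fell from 141 CPM (SD 2.97) to 7.46 CPM (SD 0.242), a log2 fold change of -4.23 (SE 0.08), and CCL20 went from 18, 44 and 39 reads to 1, 2 and 0. The mitochondrial superoxide dismutase gene SOD2 fell by 1.85, the NF-κB inhibitor gene NFKBIA by 1.27 and BIRC3, an inhibitor of cell death, by 0.39 on the log2 scale. Of the 6 untested genes, CCL2 had 8, 18 and 21 reads with NC siRNA and 0 in each BNC2 siRNA library, while PTGS2 had 0, 1 and 5 and then 1, 1 and 4, CSF2 and SAA1 overlapped between the groups, CSF3 had 2, 1 and 3 and then none, and LCN2 had no read.

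**Figure D5:**
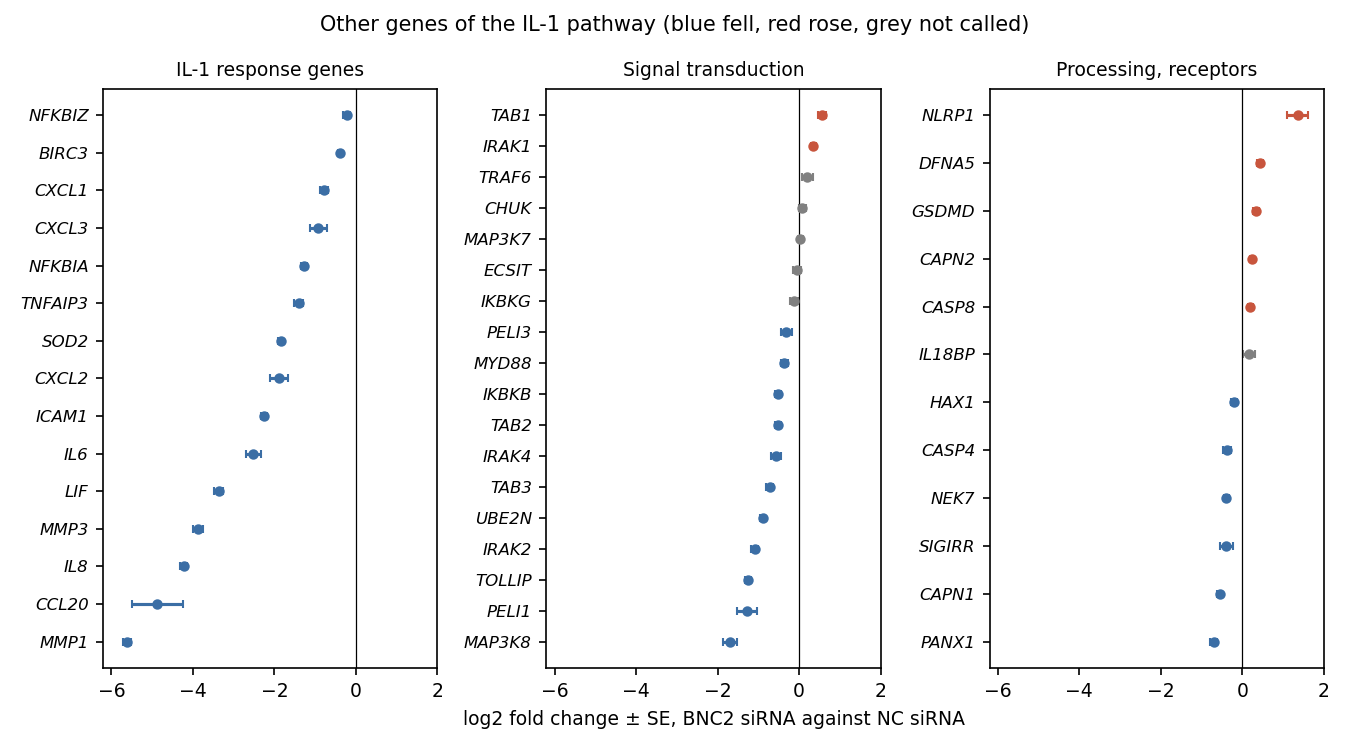
log2 fold change with its SE (BNC2 siRNA against NC siRNA) for the tested genes of the IL-1 pathway outside the member list, in 3 panels: response genes, signal transduction, and processing with other receptors. Each of the 15 response genes lies left of 0, from MMP1 at -5.62 to NFKBIZ at -0.23, while the other panels hold genes on both sides.

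The 5 genes whose pattern across the 6 libraries was most like that of IL1B were PI3, GDF15, SBSN, PLAT and MMP1. Likeness was the Euclidean distance between centred log2(CPM + 0.1) values, at 3.54, 3.96, 4.53, 4.86 and 5.21 in that order, and it uses the same contrast, so the list is a description. PI3, which encodes the elastase inhibitor elafin, had 1089 reads with NC siRNA and 2 with BNC2 siRNA, a ratio of 528 (95% interval 146 to 4360). Both BNC2 siRNA reads of PI3 lay in replicate 2, so without that library only a lower bound would be left. SBSN, an epidermal secreted protein gene, had 521 and 2, a ratio of 253 (69.6 to 2090). GDF15, a stress cytokine gene, had 5631 and 50, and PLAT, the tissue plasminogen activator gene, 1028 and 11. The intervals of PI3 and SBSN overlap that of IL1B, and a difference between these ratios was not tested. PI3, SBSN and PLAT passed the count filter through the NC siRNA libraries alone. GDF15 would not have passed on its BNC2 siRNA libraries either, the lowest of which was at 0.7 CPM.

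Markers of cell types were read beside these results. The mesenchymal label held, since the 6 mesenchymal genes were all tested and summed to 7570 to 7640 CPM with NC siRNA and 11100 to 11500 CPM with BNC2 siRNA, 5 of them called up-regulated, beside 36.6% of all genes tested, and SPARC called down-regulated. Most of the difference in the sum was COL1A2, at 1180 CPM (SD 23) with NC siRNA and 4640 CPM (SD 73.2) with BNC2 siRNA. The 7 epithelial genes summed to 4.03 to 5.86 CPM with NC siRNA and 0.339 to 0.814 CPM with BNC2 siRNA. Most of this was KRT18, with EPCAM and ESRP1 at 0. KRT18 was called down-regulated (log2 fold change -3.33, edgeR adjusted p = 3e-08), but it passed the count filter through the NC siRNA libraries alone. Leukocyte and myeloid genes, which are of interest because myeloid cells make IL1B, moved with the groups: the 12 summed to 11.5 to 13.6 CPM with NC siRNA and 6.38 to 7.62 CPM with BNC2 siRNA. Most of that difference was CD163, at 7.45 CPM (SD 0.667) with NC siRNA and 2.65 CPM (SD 0.475) with BNC2 siRNA. Of the 4 tested, CD14, CD163 and FCER1G fell and ITGAM rose, but CD14 and FCER1G reached the count filter only through the NC siRNA libraries and ITGAM only through the BNC2 siRNA libraries, so the filter favoured those calls. Untested CSF1R had 2, 1 and 3 reads with NC siRNA and 7, 11 and 7 with BNC2 siRNA. The pan-leukocyte gene PTPRC had 2 to 7 reads in each library, and TYROBP and CD2 had none. The 4 endothelial genes reached at most 0.672 CPM in sum in any library, with CDH5 at 0. The part of these marker genes in the results above was not tested.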

How the data were processed

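Poly(A) RNA of 6 BT549 cultures was sequenced single-end. The authors aligned reads to hg19 with STAR 2.6.1d and deposited its gene counts. The whole-series table holds raw read counts per gene, and the deposited library tables hold the same reverse-strand counts beside the unstranded and forward-strand ones. Between 37.7 and 41.1% of reads were assigned to no gene and stayed out of library sizes.

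The 10 members and all gene lists were chosen with earlier results of these data known. Genes above 1 CPM in at least 3 libraries were kept (in fits without 1 library, in at least 2), scaled by TMM and tested with edgeR 4.0.16 (R 4.3.3), quasi-likelihood, no covariates, in place of the likelihood ratio test of the study. Calls were made at an adjusted p of at most 0.05. SEs were derived from the F statistic. Limits of a count of 0 are 3 counts per library, and 95% intervals of count ratios are exact (Clopper-Pearson). All intervals and limits cover counting error only. The methods of the study call the 3 libraries of a group biological replicates, of a single cell line. Alternatives were the likelihood ratio test, DESeq2 1.42.0, its size factors, total counts, other count filters, a replicate block, both strands and leaving out each library. The fitting step was tested on simulated data.

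Positions are from GENCODE 44 mapped to GRCh37, while the authors counted on another hg19 annotation. Named in the text are all members, in each other list up to 4 genes with the highest mean CPM and up to 3 with the largest called change, genes within 500 kb of IL1B or IL1R1, and the 5 genes nearest to IL1B. MYD88, NLRP3, PYCARD, CCL2, CXCL2, PTGS2, CSF2, CSF3, SAA1, LCN2, NFKBIZ and marker genes were added outside that rule.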

Additional observations from a re-analysis of the deposited data

How the results depend on the processing

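IL1RAP stayed up-regulated under each of the 14 alternatives, at a log2 fold change of 0.99 to 1.15, and IL1B and IL36RN stayed down-regulated. IL1R1 kept its negative sign at -0.22 to -0.11 and lost its call with DESeq2 (-0.15, adjusted p = 0.054), no count filter (-0.11, adjusted p = 0.18), filterByExpr (-0.13, adjusted p = 0.059), both strands (-0.13, adjusted p = 0.053) and 5 of the fits without 1 library. The sample titles number the replicates but do not say whether the numbers pair the samples. Deviations from the group mean correlated at -0.208, -0.081 and -0.13 between same-numbered libraries. Such correlations cannot decide whether those cultures were prepared together. With the replicate block IL1R1 stood at -0.14 with an adjusted p of 0.11 in edgeR, the other 3 tested members kept their calls, and 8400 genes were called in place of 8879. The IL1B count ratio ran from 1390 (without BNC2 siRNA replicate 2) to 2260 (total counts only).

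Down-regulated counts changed mainly with the filter. With no count filter 3 of the further ligands (0 with the filter), 3 of the further receptors (1 with it), 8 neighbours of IL1B (5 with it) and 1 neighbour of IL1R1 (0 with it) were called down-regulated, as more genes were tested. These counts overlap. The 3 further ligands are among the 8 neighbours of IL1B, and the neighbour of IL1R1 is among the 3 further receptors. With filterByExpr there were 2 further receptors. Leaving out single libraries gave 0 to 2 further receptors and 2 to 3 members. The median of the IL-1 response genes ran from -2.15 to -1.84. Depth limits IL1A, IL1RN, IL18, IL33, IL1R2 and CASP1, whose libraries hold 0 to 7 reads each.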
